A study of Mus musculus with 14 samples.

Results

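The 7 genes described here encode regulators of bone formation: the RUNX transcription factors (*Runx1*, *Runx2*, *Runx3*), their shared partner subunit (*Cbfb*), the zinc finger factor Osterix (*Sp7*) and the bHLH factors *Twist1* and *Twist2*. They were chosen as named members of these families, with earlier results of these data known, from the 24454 genes of the count table, and were read in all 14 libraries. All 7 passed the filter on low counts, as did 15125 genes of the table.

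The libraries were made from mouse forelimb bud cells sorted by FACS. All embryos carried a *Sox9* IRES-EGFP reporter on a mixed Swiss Albino background, without a further mutation or treatment, and a library holds the cells of many pooled limb buds of both sexes. All gates left out dead cells and cells with CD31, Ter119, CD45, EpCam, Gr1 or CD11b. EGFP-positive cells are named S9+, EGFP-negative cells S9-, and cells with high surface PDGFRα Pαhi. Per the paper, all S9- populations were sorted from PDGFRα-positive cells. At E10.5 the populations were S9-JAG1+ limb mesenchymal progenitors (LMPs; SCA-1-, 3 libraries), S9-Pαhi LMPs (JAG1-, SCA-1-, 3 libraries), S9+Pαhi osteochondrogenic progenitors (OCPs, 3 libraries) and S9-SCA-1+ cells (JAG1-, 2 libraries with replicate numbers 2 and 3). S9+PαhiCol2a1+ chondroblasts (3 libraries) came from E11.5 limb buds, and their labels give the same gate as for OCPs. Population and stage therefore cannot be told apart for chondroblasts, and fewer cells of a type and less RNA per cell cannot be told apart in any of these bulk libraries.

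RUNX proteins bind DNA through the conserved Runt domain, and CBFβ, which does not bind DNA itself, increases this binding. RUNX2 is required for osteoblast formation and drives chondrocyte hypertrophy, RUNX1 is best known from blood stem cells and is also present in early cartilage and perichondrium, and RUNX3 acts with RUNX2 in maturing chondrocytes. *Sp7* acts downstream of *Runx2* in osteoblast precursors. TWIST1 and TWIST2 keep mesenchyme undifferentiated and can hold RUNX2 inactive by binding its Runt domain.

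Library totals ranged from 20316583 to 29162751 counts, so that 1 CPM stood for 20.1 to 29.7 counts. Levels are CPM on TMM-scaled totals, where up to 3 counts, or 0.101 to 0.149 CPM, were taken as not distinguishable from absence. The mRNAs of SOX9, JAG1 and SCA-1 followed the gates. *Sox9* was at 432 to 445 CPM in OCPs and 411 to 625 CPM in chondroblasts but at most 65.4 CPM in S9- cells. *Jag1* and *Ly6a* (SCA-1) were each higher in the population gated for them than in the S9- cells gated against them. *Pdgfra* was at 24.0 to 44.8 CPM in S9-SCA-1+ cells and 246 to 248 CPM in S9-JAG1+ LMPs. It was at 360 to 530 CPM in S9-Pαhi LMPs, 667 to 746 CPM in OCPs and 773 to 949 CPM in chondroblasts. *Col2a1*, part of the name of the chondroblasts, was at 1274 to 1885 CPM in them and at 695 to 1228 CPM in OCPs. The S9-SCA-1+ cells stood apart: 7 myogenic markers summed to 1500 to 1504 CPM there and to at most 11.4 CPM elsewhere, and 13 limb mesenchyme markers, *Twist1* among them, to 837 to 1002 CPM against 2539 to 4820 CPM. In replicate 3 of these cells 15 erythroid and megakaryocyte markers summed to 4031 CPM, led by *Hbb-y* at 1125 CPM, against 142 CPM in replicate 2. Results on S9-SCA-1+ cells that change without either library are given both ways.

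Since related genes could share reads, their sequences were compared first. The pair of *Twist* genes is shown over the coding stretch of 60 bases in which they differ least, and the 3 *Runx* genes over the corresponding stretch, which codes for part of the Runt domain; capitals mark positions at which members of a family differ (GENCODE transcripts, mouse genome GRCm38).
Twist1: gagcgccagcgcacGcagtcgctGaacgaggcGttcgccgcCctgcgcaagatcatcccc
Twist2: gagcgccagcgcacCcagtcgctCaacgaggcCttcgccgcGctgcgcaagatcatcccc
Runx1: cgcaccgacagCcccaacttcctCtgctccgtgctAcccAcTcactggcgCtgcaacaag
Runx2: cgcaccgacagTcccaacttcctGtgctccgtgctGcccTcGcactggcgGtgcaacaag
Runx3: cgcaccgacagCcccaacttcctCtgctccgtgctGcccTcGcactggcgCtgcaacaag

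The *Twist* stretches differ at 4 positions and the *Runx* stretches at 6. They lie at coding bases 361 to 420 of *Twist1*, 223 to 282 of *Twist2*, 232 to 291 of *Runx1*, 568 to 627 of *Runx2* and 247 to 306 of *Runx3*. The longest identical coding run was 38 bases for *Runx1* and *Runx3*, 26 bases for *Runx2* with either, and 23 bases for the *Twist* genes. No stretch of 50 bases was shared between any members, so a full-length match of that size could be assigned to 1 gene of a family. Antisense genes overlapped some exons: *Gm29100* covered 46.5% of the annotated *Twist2* exon bases, *Runx2os1* 5.87% of those of *Runx2* and *Gm26626* 0.881% of those of *Runx1*. Whether counting used strand is not given in the sources used here, so reads of *Twist2* and *Gm29100* cannot be told apart.

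The *Runx* genes are each transcribed from a distal and a proximal promoter. At the distal start, all 3 carry the same run of 18 bases, shown in capitals in a window of 30 bases (RefSeq, GRCm38.p6).
Runx1 (chr16:92826025-92826054, minus strand): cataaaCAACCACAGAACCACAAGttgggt
Runx2 (chr17:44814583-44814612, minus strand): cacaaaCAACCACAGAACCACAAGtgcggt
Runx3 (chr4:135120503-135120532, plus strand): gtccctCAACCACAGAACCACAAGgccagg

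The run holds the letters ACCACA, the reverse complement of TGTGGT and the core that RUNX proteins are known to bind, in tandem. It starts 26 bases after the start of the promoter in *Runx1* and 21 bases after it in *Runx2*, within the first exon, and 136 bases before it in *Runx3*. For *Runx2* the start used is base 44814627, which lies inside the annotated gene, as that begins at base 44814797. Of 32851 promoters of 300 bases each (250 before and 50 after the start), 4 held the run on either strand (0.0122%): the 3 *Runx* promoters and that of *Gm16225*, whose promoter overlaps that of *Runx3* on the other strand. ACCACA or TGTGGT occurred at least once in 16.8% of all promoters and at least 2 times in 1.81%, and at 3 places in the distal *Runx2* promoter. It was in none of the promoters listed for *Cbfb*, *Twist1* and *Twist2*. Such a match describes letters only, and the distal and proximal starts were not counted separately in these data.

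All 7 genes differed among the 5 populations in the joint test (adjusted p of at most 0.0258, edgeR quasi-likelihood F-test, Benjamini-Hochberg), as did 74.8% of all genes tested. *Cbfb*, with the largest of these p-values, did not pass when scaled by library totals instead of TMM. Calls between pairs of populations needed both an adjusted p under 0.1 and a log2 fold change of at least 1.2 in size. Of the 70 combinations of gene and pair, 29 were called, 9 of 10 pairs for *Runx3*, 7 for *Runx2*, 6 for *Runx1*, 4 for *Twist1*, 3 for *Sp7* and none for *Cbfb* and *Twist2*. The members called numbered 2 of 7 between S9-Pαhi and S9-JAG1+ LMPs (7% of all genes tested), 2 between OCPs and S9-JAG1+ LMPs (12.5%), 3 between chondroblasts and S9-JAG1+ LMPs (19.4%), 0 between OCPs and S9-Pαhi LMPs (4.84%), 3 between chondroblasts and S9-Pαhi LMPs (12.7%) and 2 between chondroblasts and OCPs (7.77%). Between S9-SCA-1+ cells and the others they numbered 5 for S9-JAG1+ LMPs (11.4%), 4 for OCPs (12.8%) and 4 for chondroblasts (19.4%), and for S9-Pαhi LMPs 4 were lower and none higher in S9-SCA-1+ cells (5.58% and 4.96%).

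By adjusted p alone (edgeR quasi-likelihood F-test, Benjamini-Hochberg) 50 of the 70 combinations passed, in the same order of pairs 4 members (28.1% of all genes tested), 2 (47.7%), 7 (65.9%), 1 (20.1%), 6 (56.2%) and 5 (34.8%). For S9-SCA-1+ cells they were 7 against S9-JAG1+ LMPs (31.2%), 6 against OCPs (46.9%), 6 against chondroblasts (63.6%) and 6 against S9-Pαhi LMPs (30.5%). The member that passed by adjusted p alone between OCPs and S9-Pαhi LMPs, where none was called, was *Twist1*. With 4.84% of all genes called there and 20.1% passing by adjusted p alone, such low counts are not particular to the 7 genes.

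**Figure D1:**
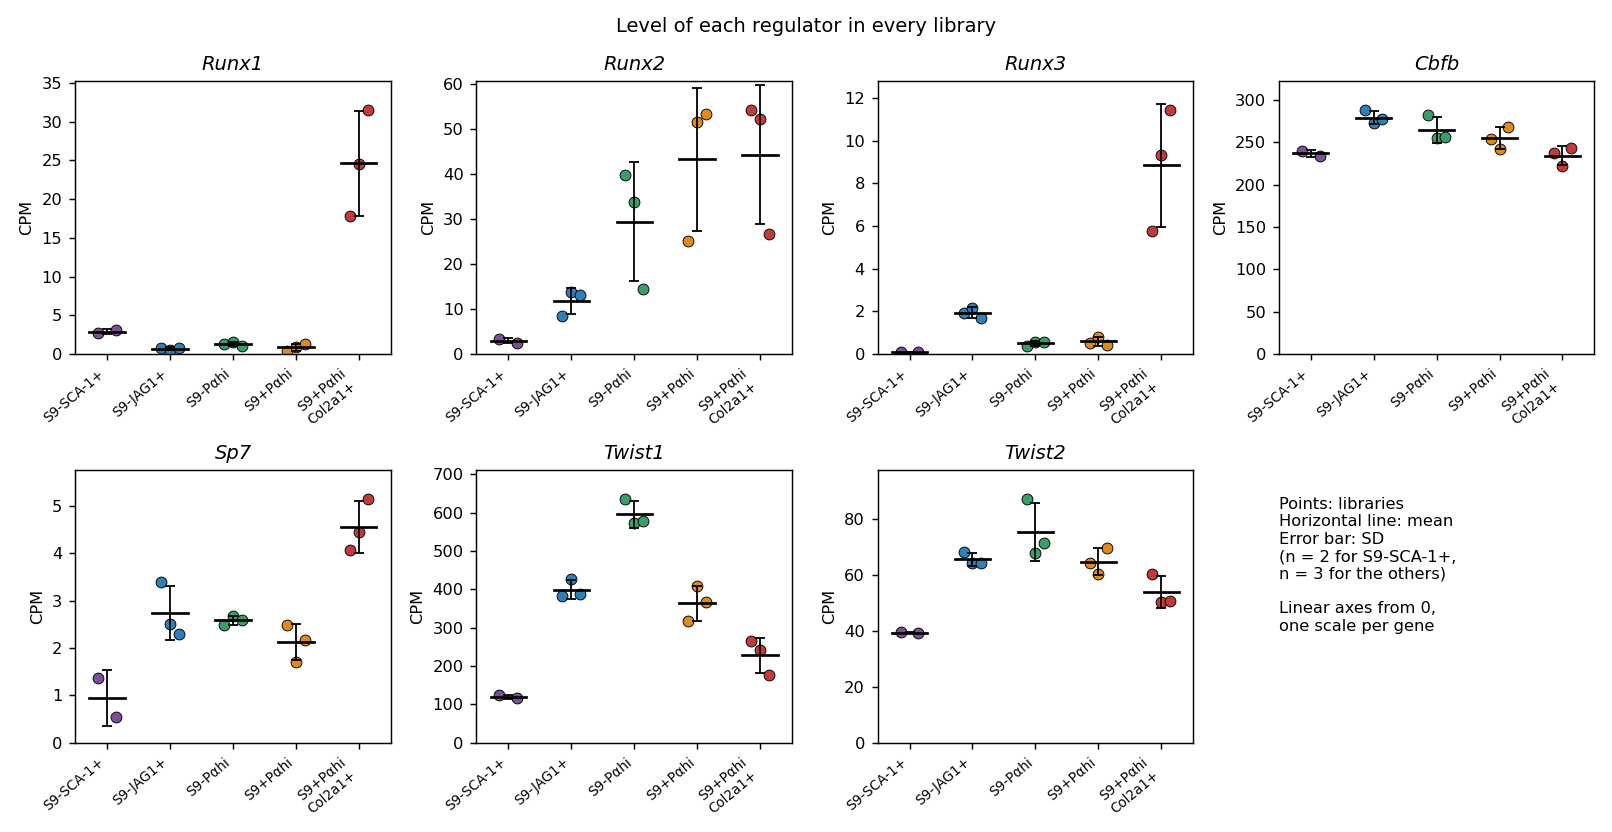
CPM (y-axis, linear and from 0, its own scale for each gene) of the 7 genes in every library of the 5 populations (x-axis), with points for libraries, lines for means and error bars for the SD. *Runx1* and *Runx3* are highest in all 3 chondroblast libraries, *Runx2* is high in OCPs and chondroblasts with 1 low library in each, and *Twist1* peaks at 596 CPM in S9-Pαhi LMPs.

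*Runx2* (Entrez 12393; chromosome 17, 44495987 to 44814797) was the main *Runx* gene of the LMPs and OCPs. It was at 25.0, 51.4 and 53.4 CPM in the OCP libraries, at 54.1, 52.1 and 26.5 CPM in chondroblasts and at 39.8, 33.8 and 14.4 CPM in S9-Pαhi LMPs. In S9-JAG1+ LMPs it had 8.48, 13.8 and 13.0 CPM, and in S9-SCA-1+ cells 3.39 and 2.53 CPM. The first 3 populations overlapped with each other, while every library of them lay above every S9-JAG1+ library, and these above both S9-SCA-1+ libraries. Means were 44.2 ± 15.4 CPM in chondroblasts, 43.3 ± 15.9 in OCPs, 29.3 ± 13.3 in S9-Pαhi LMPs and 11.8 ± 2.88 in S9-JAG1+ LMPs (SD, n = 3 each), and 2.96 ± 0.611 in S9-SCA-1+ cells (SD, n = 2).

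Compared with S9-JAG1+ LMPs, *Runx2* was higher in OCPs by a log2 fold change of 1.88 (SE 0.38, adjusted p = 0.00141, edgeR quasi-likelihood F-test, Benjamini-Hochberg) and in chondroblasts by 1.91 (SE 0.38). In S9-Pαhi LMPs it was higher by 1.32 (SE 0.38, adjusted p = 0.0230, edgeR quasi-likelihood F-test, Benjamini-Hochberg). This call was lost without replicate 1 of the S9-Pαhi LMPs (1.04) or without replicate 1 of the S9-JAG1+ LMPs (1.13). S9-SCA-1+ cells had less *Runx2* than S9-JAG1+ LMPs by a log2 fold change of -1.99 (SE 0.50) and less than OCPs by -3.87 (SE 0.51). Neighbours in the order above S9-JAG1+ LMPs did not pass: OCPs over S9-Pαhi LMPs gave 0.55 (95% interval -0.22 to 1.33) and chondroblasts over OCPs 0.03 (-0.74 to 0.80). These intervals leave room for differences of up to 1.33 and 0.80 on the log2 scale, so equal levels are not shown.

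*Runx2* varied more between replicates than most genes, with a biological coefficient of variation of 31.2% against a median of 12.3% over all genes tested. Its low libraries were replicate 1 of the OCPs and of the S9-JAG1+ LMPs and replicate 3 of the S9-Pαhi LMPs and of the chondroblasts, at -0.71, -0.44, -0.89 and -0.67 log2 units from their population means. Log2 levels of 11883 genes also followed exon length, with slopes per doubling in these 4 libraries of -0.097, -0.043, -0.060 and 0.019, and the trend came to -0.12, -0.055, -0.10 and 0.044 at the length of *Runx2*. The part of this trend in the spread of *Runx2* was not tested. With these trends taken out, the members called in every pair were as many as before.

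*Runx1* (Entrez 12394; chromosome 16, 92601466 to 92826074) was high in chondroblasts and low in OCPs. It was at 17.8, 24.5 and 31.5 CPM in chondroblasts and at 0.446, 0.903 and 1.34 CPM in OCPs. S9-Pαhi LMPs had 1.26, 1.54 and 1.10 CPM, S9-JAG1+ LMPs 0.813, 0.545 and 0.753 CPM, and S9-SCA-1+ cells 2.66 and 3.13 CPM. The lowest chondroblast library thus lay above all other libraries, and both S9-SCA-1+ libraries lay above all LMP and OCP libraries. Chondroblasts over OCPs gave a log2 fold change of 4.76 (SE 0.31, adjusted p = 3.36e-07, edgeR quasi-likelihood F-test, Benjamini-Hochberg), and over S9-SCA-1+ cells 3.08 in the same direction (SE 0.31).

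S9-SCA-1+ cells, second in the order, had more *Runx1* than S9-JAG1+ LMPs, by a log2 fold change of 2.03 (SE 0.35), and than OCPs, by 1.67 (SE 0.34, adjusted p = 0.00161, edgeR quasi-likelihood F-test, Benjamini-Hochberg). Over S9-Pαhi LMPs the difference of 1.14 (SE 0.33) stayed under the fold limit. It passed the limit without replicate 2 of the S9-Pαhi LMPs (1.29) or replicate 2 of the S9-SCA-1+ cells (1.26). Among the other 3 populations no pair was called, and 1 passed by adjusted p alone, S9-Pαhi over S9-JAG1+ LMPs (0.89, adjusted p = 0.0972, edgeR quasi-likelihood F-test, Benjamini-Hochberg).

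As *Runx1* is also expressed by blood and some endothelial cells, their markers were read beside it. The 15 leukocyte markers summed to 12.7 to 16.8 CPM in chondroblasts and 12.8 to 15.3 CPM in OCPs, mostly from *Coro1a*. Of these markers 11 had a higher mean in chondroblasts than in OCPs, among them the defining marker *Ptprc* (CD45), with 6, 4 and 3 counts in the chondroblast libraries and none in the OCP libraries. *Csf1r*, *Spi1* and *Tyrobp* had at most 3 counts in any library of either. The 15 erythroid and megakaryocyte markers summed to 56.2 to 97.5 CPM in chondroblasts and 14.0 to 72.1 CPM in OCPs, and 10 of them had a higher mean in chondroblasts. The 14 endothelial markers summed to 40.5 to 65.4 CPM in chondroblasts and 25.5 to 29.5 CPM in OCPs, with a higher mean in chondroblasts for 5 and in OCPs for 9. The gene with the highest level, *Erg*, an ETS factor that is also known from cartilage, was at 26.3 to 51.7 CPM in chondroblasts and 10.7 to 14.0 CPM in OCPs. The other 13 summed to 13.7 to 14.2 CPM and to 12.9 to 15.7 CPM, and *Ramp2* was the other marker with all chondroblast libraries above all OCP libraries (2.12 to 3.02 against 0.523 to 1.38 CPM). Between the S9-SCA-1+ libraries the erythroid sum differed from 142 to 4031 CPM, and *Runx1* from 2.66 to 3.13 CPM. *Ptprc* had 7 and 11 counts in these libraries, against at most 6 in any other. *Csf1r* had 3 and 5 counts there, against at most 3. The endothelial marker *Kdr* was at 6.1 and 10.9 CPM there, against at most 1.99 CPM, whereas *Erg* was lowest there, at 3.11 and 3.13 CPM. The leukocyte sums of S9-SCA-1+ cells lay within the range of the chondroblasts, and their endothelial sums were 33.5 to 37.7 CPM. The 14 ectoderm markers summed to 23.2 to 26.3 CPM in chondroblasts and 14.9 to 17.6 CPM in OCPs. Their mean was higher in chondroblasts for 11 and in OCPs for 3. The part of blood, endothelial or ectoderm cells in the *Runx1* level was not tested.

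*Runx3* (Entrez 12399; chromosome 4, 135120645 to 135177990) was highest in chondroblasts too, but second in S9-JAG1+ LMPs. Chondroblasts had 5.75, 9.34 and 11.4 CPM, S9-JAG1+ LMPs 1.93, 2.18 and 1.66 CPM, OCPs 0.527, 0.808 and 0.434 CPM, and S9-Pαhi LMPs 0.366, 0.564 and 0.548 CPM. In S9-SCA-1+ cells 3 and 2 counts were found, at or under the limit of detection. OCPs and S9-Pαhi LMPs overlapped, and the other populations were separate from each other and from these. The log2 fold change of chondroblasts over OCPs was 3.92 (SE 0.31, adjusted p = 1.81e-06, edgeR quasi-likelihood F-test, Benjamini-Hochberg) and over S9-JAG1+ LMPs 2.20 (SE 0.27). In S9-JAG1+ LMPs *Runx3* was higher than in both the S9-Pαhi LMPs, which were lower by -1.96 (SE 0.33), and the OCPs, lower by -1.72 (SE 0.32). OCPs over S9-Pαhi LMPs gave 0.24 (95% interval -0.57 to 1.04) and were not called.

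For the S9-SCA-1+ cells, ratios of *Runx3* were taken from summed counts instead of the fit. The 5 counts of both libraries put S9-JAG1+ LMPs 21.7 times higher (95% exact binomial interval 9.1 to 68), chondroblasts 98.7 times (42.1 to 305), OCPs 6.49 times (2.57 to 21.0) and S9-Pαhi LMPs 5.57 times (2.17 to 18.2). These intervals cover counting error only, as reads of amplified libraries are not independent molecules. Cells of the peripheral nervous system are another known source of *Runx3*: 15 neural crest, glial and neuronal markers summed to 67.0 to 76.9 CPM in chondroblasts, 35.6 to 43.1 CPM in OCPs, 37.2 to 39.2 CPM in S9-SCA-1+ cells, 27.4 to 35.4 CPM in S9-JAG1+ LMPs and 26.4 to 28.9 CPM in S9-Pαhi LMPs. Their part in the *Runx3* level was not tested.

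**Figure D2:**
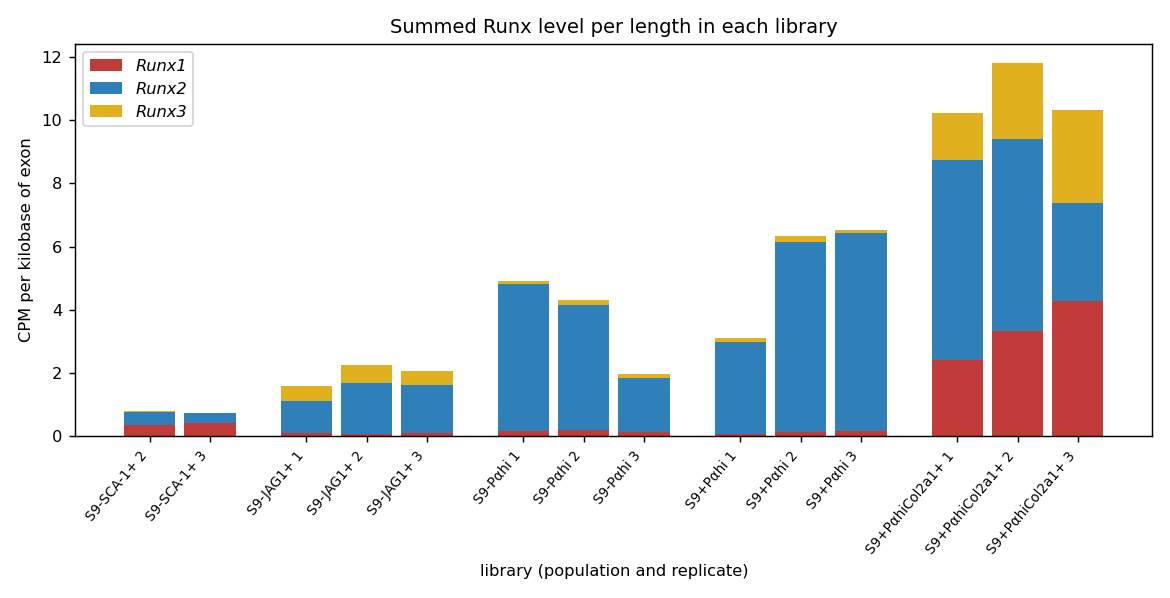
Summed CPM per kilobase of exon (y-axis, from 0) of *Runx1*, *Runx2* and *Runx3*, stacked for each library (x-axis). The 3 chondroblast sums are alike at a mean of 10.8 CPM per kilobase although their make-up differs, and *Runx2* fills most of the OCP and S9-Pαhi bars.

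Levels of different genes were compared per length of exon. The summed *Runx* level was 10.8 ± 0.898 CPM per kilobase in chondroblasts, 5.33 ± 1.92 in OCPs, 3.73 ± 1.55 in S9-Pαhi LMPs, 1.97 ± 0.335 in S9-JAG1+ LMPs (SD, n = 3 each) and 0.761 ± 0.0320 in S9-SCA-1+ cells (SD, n = 2). *Runx2* made up 94.7% ± 0.908 of the sum in OCPs and 90.6% ± 4.73 in S9-Pαhi LMPs. In chondroblasts its share was 47.9% ± 16.2, with 31.1% ± 9.24 for *Runx1* and 21.1% ± 7.05 for *Runx3* (SD, n = 3). In S9-JAG1+ LMPs *Runx2* had 69.4% ± 6.41 and *Runx3* 25.6% ± 5.11. S9-SCA-1+ cells split the smallest sum between *Runx1*, at 51.7% ± 8.16, and *Runx2*, at 45.3% ± 7.48 (SD, n = 2). Shares of the same gene therefore ranged widely: the OCP libraries held 93.7 to 95.5% *Runx2*, and the chondroblast libraries 30.1 to 61.9%. These shares depend on the length used. With the longest annotated transcript of each gene instead, *Runx3* had 20.8% in S9-JAG1+ LMPs and 17.2% in chondroblasts. *Runx2* then had 74.1% in S9-JAG1+ LMPs, 51.0% in chondroblasts and 95.5% in OCPs.

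Within chondroblasts, the same libraries stood at the ends for several members. Replicate 3 had the most *Runx1*, *Runx3* and *Sp7* (31.5, 11.4 and 5.14 CPM) and the least *Runx2* and *Twist1* (26.5 and 177 CPM). Replicate 1 had the least of the first 3 (17.8, 5.75 and 4.07 CPM) and the most of the last 2 (54.1 and 266 CPM). *Sox9* was at 625 CPM in replicate 3 and 411 CPM in replicate 1, and *Col2a1*, the collagen of cartilage, at 1885 and 1274 CPM. With 3 libraries this is a description and was not tested.

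**Figure D3:**
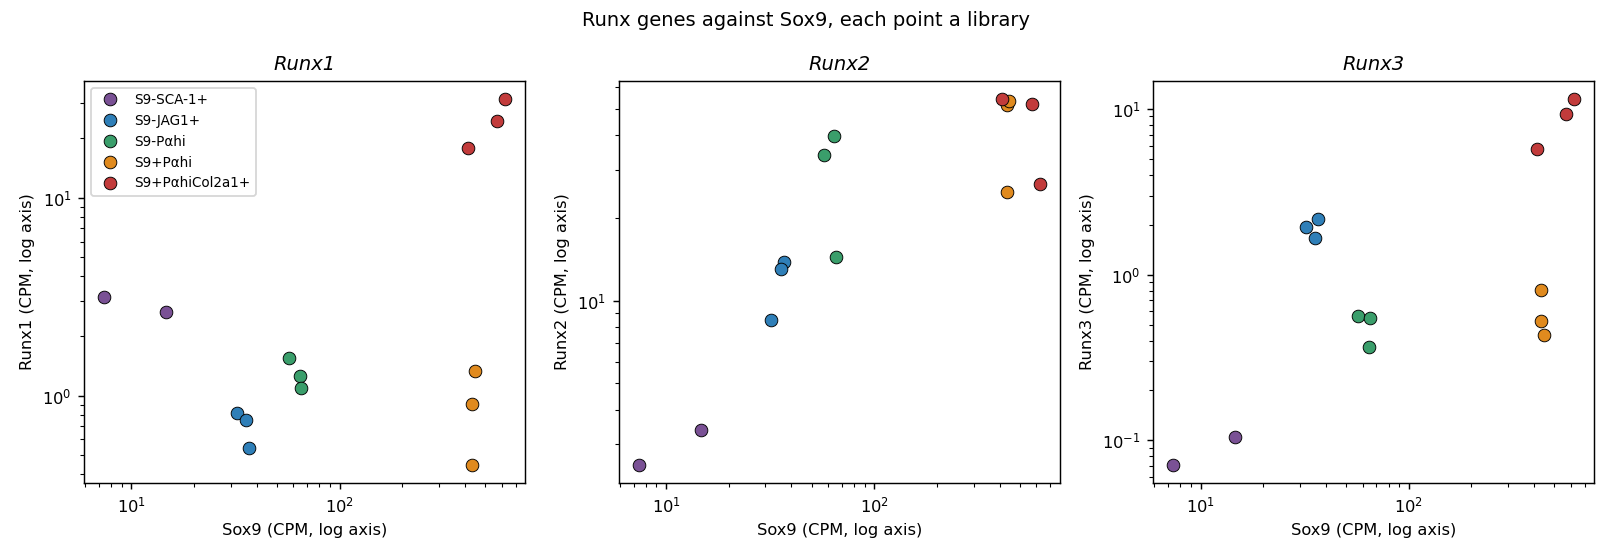
CPM of *Runx1*, *Runx2* and *Runx3* (y-axes, logarithmic) against CPM of *Sox9* (x-axes, logarithmic), with a point for each of the 14 libraries coloured by population. OCPs and chondroblasts overlap in *Sox9* and in *Runx2* but are apart in *Runx1* and *Runx3*.

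*Cbfb* (Entrez 12400; chromosome 8, 105170674 to 105217989) was the steadiest of the 7 genes, with a biological coefficient of variation of 7.16%. Its means were 279 ± 7.86 CPM in S9-JAG1+ LMPs, 265 ± 14.9 in S9-Pαhi LMPs, 255 ± 12.7 in OCPs and 234 ± 11.3 in chondroblasts (SD, n = 3 each), and 237 ± 3.98 in S9-SCA-1+ cells (SD, n = 2). The largest difference was that of chondroblasts over S9-JAG1+ LMPs, -0.25 on the log2 scale (SE 0.07, adjusted p = 0.00579, edgeR quasi-likelihood F-test, Benjamini-Hochberg). No pair was called and 3 passed by adjusted p alone, while with library totals *Cbfb* did not pass the joint test (adjusted p = 0.118, edgeR quasi-likelihood F-test, Benjamini-Hochberg). Per length, the partner exceeded the sum of the *Runx* genes in all libraries, 7.51 ± 0.928 times in chondroblasts, 18.4 ± 8.34 times in OCPs, 28.2 ± 14.1 times in S9-Pαhi LMPs, 50.02 ± 10.6 times in S9-JAG1+ LMPs and 107 ± 2.70 times in S9-SCA-1+ cells. These ratios mirror the *Runx* sum, since *Cbfb* itself stayed between 80.5 and 95.9 CPM per kilobase on average.

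*Sp7* (Entrez 170574; chromosome 15, 102356603 to 102367035) was low in all populations. It was at 4.07, 4.45 and 5.14 CPM in chondroblasts, 3.38, 2.51 and 2.30 CPM in S9-JAG1+ LMPs, 2.48, 2.67 and 2.59 CPM in S9-Pαhi LMPs, 2.47, 1.71 and 2.17 CPM in OCPs, and 1.36 and 0.534 CPM in S9-SCA-1+ cells. All chondroblast libraries were above all others, both S9-SCA-1+ libraries were below all others, and the S9-JAG1+ LMPs overlapped with the S9-Pαhi LMPs and with the OCPs. Chondroblasts over OCPs gave a log2 fold change of 1.10 (SE 0.26, adjusted p = 0.00763, edgeR quasi-likelihood F-test, Benjamini-Hochberg), under the fold limit, and 1.22 without replicate 1 of the OCPs, over it. S9-SCA-1+ cells were lower than S9-JAG1+ LMPs by -1.52 (SE 0.33), than S9-Pαhi LMPs by -1.44 (SE 0.33) and than chondroblasts by -2.25 (SE 0.33).

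The first 2 of these *Sp7* calls rested on replicate 3 of the S9-SCA-1+ cells, with 15 counts against 39 in replicate 2, and without it the values were -0.999 and -0.92. S9-SCA-1+ cells over OCPs gave -1.16 (SE 0.33) and passed the fold limit without replicate 2 of the OCPs (-1.28) or replicate 2 of the S9-SCA-1+ cells (-1.98). Replicate 3 was also the library rich in globin mRNA, and the part of blood cells in its *Sp7* level was not tested. The differences between S9-JAG1+ LMPs, S9-Pαhi LMPs and OCPs were at most 0.36 in size and none passed by adjusted p.

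*Twist1* (Entrez 22160; chromosome 12, 33957671 to 33959831) was the most abundant of the 7 genes per length in all populations but S9-SCA-1+ cells, where *Cbfb* exceeded it. It was at 636, 573 and 579 CPM in S9-Pαhi LMPs, 382, 428 and 388 CPM in S9-JAG1+ LMPs, 316, 408 and 367 CPM in OCPs, 266, 241 and 177 CPM in chondroblasts, and 124 and 116 CPM in S9-SCA-1+ cells. Only S9-JAG1+ LMPs and OCPs overlapped, with a difference of -0.14 (95% interval -0.41 to 0.14). Between S9-Pαhi LMPs and the S9-SCA-1+ cells the log2 fold change was -2.32 (SE 0.16, adjusted p = 8.42e-08, edgeR quasi-likelihood F-test, Benjamini-Hochberg), and between S9-Pαhi LMPs and chondroblasts -1.39 (SE 0.13). Smaller differences passed by adjusted p but not by fold: OCPs were below S9-Pαhi LMPs by -0.71 (SE 0.13) and chondroblasts below OCPs by -0.67 (SE 0.13, adjusted p = 0.00196, edgeR quasi-likelihood F-test, Benjamini-Hochberg). The steps from S9-Pαhi LMPs to OCPs and chondroblasts were thus in the same direction for *Twist1*.

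*Twist2* (Entrez 13345; chromosome 1, 91801461 to 91848034) was ordered like *Twist1* in smaller steps. Its means were 75.3 ± 10.3 CPM in S9-Pαhi LMPs, 65.5 ± 2.40 in S9-JAG1+ LMPs, 64.6 ± 4.76 in OCPs, 53.7 ± 5.70 in chondroblasts (SD, n = 3 each) and 39.2 ± 0.198 in S9-SCA-1+ cells (SD, n = 2). Both S9-SCA-1+ libraries lay below all others, and S9-Pαhi LMPs overlapped with S9-JAG1+ LMPs and OCPs, and these last with chondroblasts. The largest difference was that of S9-SCA-1+ cells over S9-Pαhi LMPs, -0.94 (SE 0.12, adjusted p = 4.11e-05, edgeR quasi-likelihood F-test, Benjamini-Hochberg). *Twist1* made up 86.7% ± 0.884 of the summed *Twist* level per length in S9-Pαhi LMPs, 83.3% ± 1.23 in S9-JAG1+ LMPs, 82.0% ± 2.40 in OCPs, 77.4% ± 2.90 in chondroblasts and 71.4% ± 0.860 in S9-SCA-1+ cells. With the longest annotated transcript of each gene in place of the table's length, these shares were 92.5, 90.4, 89.6, 86.6 and 82.5%, in the same order of populations.

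**Figure D4:**
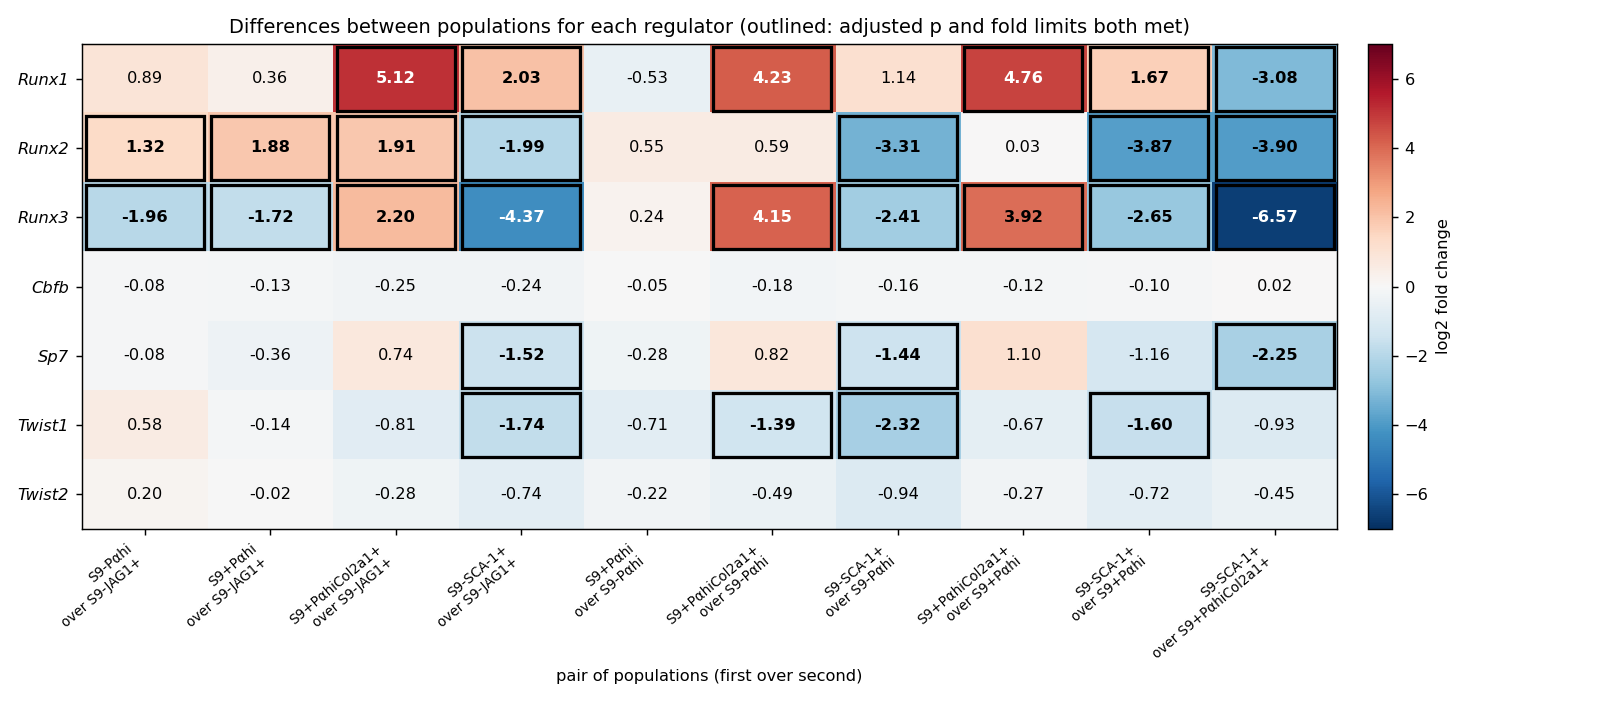
Log2 fold change (colour and number) of each of the 7 genes (rows) for each of the 10 pairs of populations (columns, first over second). Outlined cells met both limits; the *Runx3* values against S9-SCA-1+ cells rest on 3 and 2 counts there and depend on the prior count. *Cbfb* and *Twist2* have no outlined cell.

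To see which other regulators and targets moved between the same populations, lists of genes were read in 4 pairs. Of 24 genes of osteoblast maturation and bone matrix, 18 were tested. The late genes *Ibsp*, *Bglap*, *Bglap2*, *Dmp1*, *Sost* and *Mepe* were too low, none above 0.151 CPM on average in any population. In S9-Pαhi over S9-JAG1+ LMPs 5 of the 18 were called higher and 1 lower (4.42% and 2.58% of all genes), with a median log2 fold change of 0.53 against 0.00 for all genes. From S9-Pαhi LMPs to OCPs 1 was higher and 4 lower (3.48% and 1.36%; median -0.34 against 0.02), and from OCPs to chondroblasts 7 were higher and none lower (6.6% and 1.16%; median 0.66 against -0.02). In S9-SCA-1+ cells 1 was higher and 8 lower than in S9-Pαhi LMPs (4.96% and 5.58%; median -1.15 against 0.01).

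Of these genes *Msx2*, a homeobox regulator of osteoblast precursors, had 89.8 ± 11.1 CPM in S9-Pαhi LMPs, 21.1 ± 3.45 in S9-JAG1+ LMPs and 11.1 ± 2.15 in OCPs. *Mef2c*, a factor of chondrocyte hypertrophy, had 24.4 ± 5.38 CPM in chondroblasts and 3.73 ± 0.490 in OCPs (SD, n = 3; log2 fold change 2.71, adjusted p = 1.85e-06, edgeR quasi-likelihood F-test, Benjamini-Hochberg). The collagen I genes *Col1a1* and *Col1a2* had their highest means in chondroblasts, at 403 ± 46.4 and 1224 ± 159 CPM. They had 299 ± 55.4 and 989 ± 197 CPM in S9-Pαhi LMPs, 262 ± 24.8 and 986 ± 62.0 in OCPs, and 90.2 ± 28.5 and 355 ± 35.4 in S9-JAG1+ LMPs. *Alpl*, tissue-nonspecific alkaline phosphatase, was called higher in S9-SCA-1+ cells, at 10.3 ± 0.517 CPM (n = 2), than in S9-Pαhi LMPs at 2.57 ± 0.796 CPM. Chondroblast levels of *Phex*, *Sparc*, *Bmp2*, *Dlx5*, *Dlx6* and *Dlx3*, the other 6 genes called there over OCPs, ranged from 0.897 CPM (*Dlx3*) to 103 CPM (*Sparc*) and were chosen after their values were seen, as they complete the count.

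Of 16 genes of hypertrophic and growth plate cartilage, 10 were tested, and *Col10a1*, *Mmp13* and *Panx3* were not above 0.0473 CPM on average in any population. From OCPs to chondroblasts 4 were called higher and none lower (6.6% and 1.16% of all genes, list median 0.65 against -0.02), from S9-Pαhi LMPs to OCPs 2 higher and none lower (3.48% and 1.36%, -0.15 against 0.02), in S9-Pαhi over S9-JAG1+ LMPs 1 higher and none lower (4.42% and 2.58%, -0.07 against 0.00), and in S9-SCA-1+ cells over S9-Pαhi LMPs 2 higher and 1 lower (4.96% and 5.58%, -0.54 against 0.01). *Fgfr3*, a receptor of growth plate chondrocytes, had 7.86 ± 1.46 CPM in S9-Pαhi LMPs, 24.8 ± 7.70 in OCPs and 60.4 ± 12.0 in chondroblasts. *Ptch1*, the Hedgehog receptor and target, was highest in S9-JAG1+ LMPs at 219 ± 22.2 CPM, against 96.9 ± 7.67 in S9-Pαhi LMPs, a difference of -1.18 (SE 0.12) under the fold limit.

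All 29 corepressors, coactivators and modifiers of RUNX proteins were tested. Called were 2 higher and 1 lower in S9-Pαhi over S9-JAG1+ LMPs (4.42% and 2.58% of all genes), 1 higher from S9-Pαhi LMPs to OCPs (3.48%), none from OCPs to chondroblasts (6.6% and 1.16%) and 1 lower in S9-SCA-1+ cells over S9-Pαhi LMPs (5.58%). Their medians were -0.02, 0.01, 0.01 and -0.22. By adjusted p alone, 6 of them were higher and 3 lower from OCPs to chondroblasts, against 18.3% and 16.5% of all genes (edgeR quasi-likelihood F-test, Benjamini-Hochberg). *Cbfa2t3*, a corepressor of the ETO family, had 63.0 ± 7.64 CPM in S9-JAG1+ LMPs and 10.4 ± 2.83 in S9-Pαhi LMPs (log2 fold change -2.61, adjusted p = 2.54e-07, edgeR quasi-likelihood F-test, Benjamini-Hochberg). *Wwp2*, a ubiquitin ligase gene of cartilage, had 84.0 ± 2.04 CPM in S9-Pαhi LMPs, 182 ± 54.8 in OCPs and 417 ± 68.2 in chondroblasts, steps that both stayed under the fold limit. *Zfp521*, a zinc finger antagonist of RUNX2, was at 145 ± 6.15, 180 ± 17.9, 272 ± 31.3 and 309 ± 35.0 CPM from S9-JAG1+ LMPs over S9-Pαhi LMPs and OCPs to chondroblasts. *Tle5*, a short Groucho family member, was at 137 ± 9.76 CPM in S9-JAG1+ LMPs and at 244 to 316 CPM on average in the other populations.

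Of 18 HLH factors that pair with or oppose TWIST proteins, 15 were tested. In S9-Pαhi over S9-JAG1+ LMPs 2 were higher (4.42% of all genes, list median 0.37), from S9-Pαhi LMPs to OCPs 2 higher and 1 lower (3.48% and 1.36%, -0.44), from OCPs to chondroblasts 3 higher and 1 lower (6.6% and 1.16%, 0.48), and in S9-SCA-1+ cells over S9-Pαhi LMPs 2 higher and 4 lower (4.96% and 5.58%, -0.33). *Scx*, the tendon bHLH factor, was at 45.1 ± 10.2 CPM in S9-Pαhi LMPs and 111 on average in OCPs, and *Tcf15*, a bHLH factor of somites, at 6.21 ± 1.41 and 23.9 ± 1.69 CPM, with 75.9 on average in S9-SCA-1+ cells. *Hand2*, a posterior limb factor that dimerizes with TWIST1, was at 395 ± 38.7 CPM in S9-JAG1+ LMPs, 311 ± 31.0 in S9-Pαhi LMPs, 191 ± 11.9 in OCPs and 281 ± 43.5 in chondroblasts. *Id2*, an HLH inhibitor without a DNA-binding region, was at 62.1 ± 7.45 CPM in S9-JAG1+ LMPs and 161 ± 11.3 in S9-Pαhi LMPs.

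The 28 mesenchyme and EMT genes linked to TWIST factors were all tested. In S9-SCA-1+ cells 15 were called lower and 2 higher than in S9-Pαhi LMPs (5.58% and 4.96% of all genes, list median -1.60), from S9-Pαhi LMPs to OCPs 6 lower (1.36%, -0.39), from OCPs to chondroblasts 3 higher (6.6%, 0.22), and in S9-Pαhi over S9-JAG1+ LMPs 4 higher and 3 lower (4.42% and 2.58%, 0.21). *Msx1*, a homeobox factor of undifferentiated mesenchyme, fell from 284 ± 14.3 CPM in S9-Pαhi LMPs to 22.9 ± 6.34 in OCPs (log2 fold change -3.63, adjusted p = 4.03e-08, edgeR quasi-likelihood F-test, Benjamini-Hochberg). *Shh*, the posterior signal of the limb bud, was at 63.6 ± 10.1 CPM in S9-JAG1+ LMPs and 16.04 ± 2.71 in S9-Pαhi LMPs. *Vim*, vimentin, was at 128 ± 3.74 CPM in OCPs and 368 ± 24.0 in chondroblasts, and *Tbx5*, the forelimb factor, at 19.3 ± 6.42 CPM in S9-SCA-1+ cells (n = 2), with means of 186 CPM or more elsewhere.

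Among the 8 other Sp factors, those of general expression were not called: *Sp1* was between 142 and 179 CPM on average, *Sp2* between 31.4 and 39.6, *Sp3* between 204 and 263 and *Sp4* between 52.3 and 83.3. Called in the 4 pairs were *Sp5* and *Sp8*, both lower in S9-Pαhi LMPs than in S9-JAG1+ LMPs and than in S9-SCA-1+ cells, and *Sp9*, lower in OCPs than in S9-Pαhi LMPs. The mean of *Sp5* was 85.9 CPM in S9-SCA-1+ cells against 1.55 CPM or less in the other populations. These 3 genes make up the counts and were chosen after their values were seen. The median differences were -0.05, -0.03, 0.11 and -0.11 from S9-JAG1+ LMPs to S9-Pαhi LMPs, from these to OCPs, from OCPs to chondroblasts and from S9-Pαhi LMPs to S9-SCA-1+ cells.

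For comparison, of 23 genes of cartilage transcription and matrix 22 were tested, and 12 were higher in OCPs than in S9-Pαhi LMPs (3.48% of all genes, list median 2.27) and 13 higher in chondroblasts than in OCPs (6.6%, 1.77), with none lower. In S9-Pαhi over S9-JAG1+ LMPs 2 were higher (4.42%, 0.00), and in S9-SCA-1+ cells over S9-Pαhi LMPs 2 were higher and 7 lower (4.96% and 5.58%, -0.05). *Col9a2*, a collagen IX chain, rose from 1.24 ± 0.448 CPM in S9-Pαhi LMPs to 28.7 ± 12.0 in OCPs and 162 ± 41.7 in chondroblasts, the chain gene *Col9a1* from 38.4 ± 4.92 to 219 ± 21.6 and then had 372 ± 86.4, and *Col9a3* from 1.4 ± 0.524 to 19.5 ± 8.27 and 103 ± 19.7. The lists were chosen with results of these data known, so their counts are descriptions. They also share genes, whose calls count in both lists. *Alpl*, *Ibsp*, *Spp1*, *Pth1r* and *Mef2c* are in the osteoblast and the growth plate list. *Msx2* is in the osteoblast and the TWIST-linked mesenchyme list, and *Wwp2* in the RUNX cofactor and the cartilage list.

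**Figure D5:**
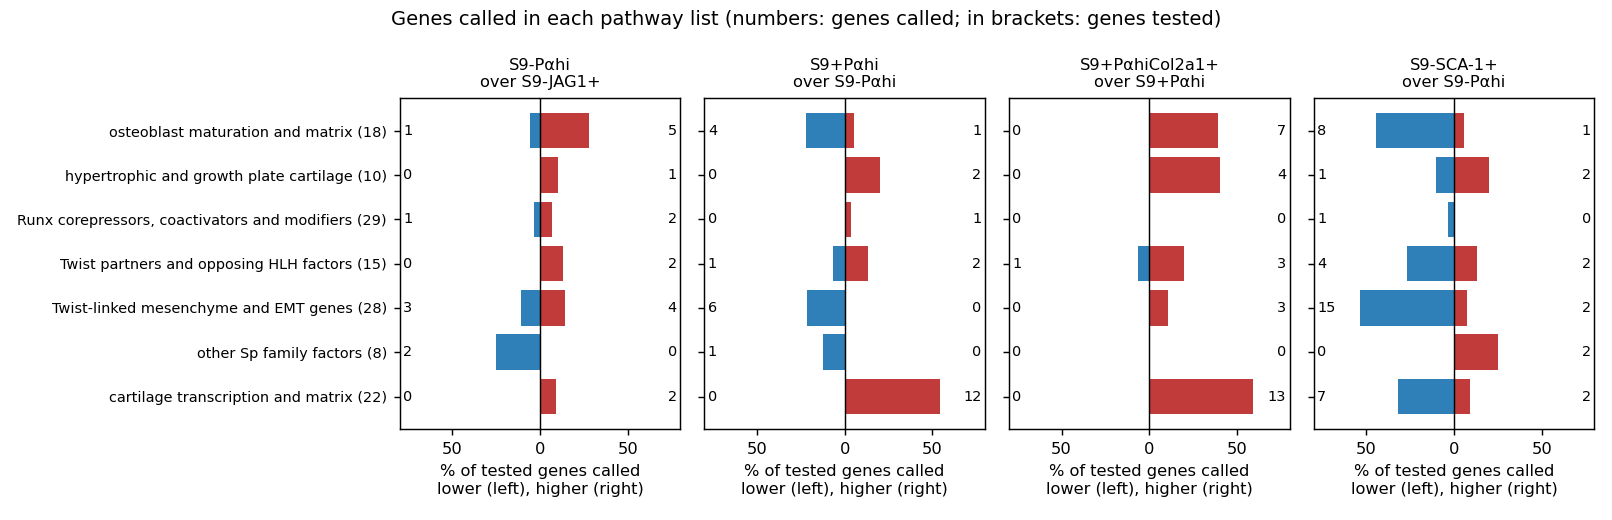
Share of the tested genes of each list (rows, number tested in brackets) called higher (red, right) or lower (blue, left) in 4 pairs of populations (panels), with the number of genes beside the bars. From OCPs to chondroblasts 7 of 18 osteoblast genes and 13 of 22 cartilage genes are higher, against 6.6% of all genes tested. None of the 29 RUNX cofactors is called, against 6.6% higher and 1.16% lower of all genes.

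The genes most like each member in pattern were sought among 9922 genes with a mean of at least 3 log2 CPM, by Pearson's r of log2 CPM over the 14 libraries, which fall into 5 populations and share their scaling. For *Runx1* they were *Eif4e3* (r = 0.989), *Fkbp10* (0.978) and *Kcnmb4os2* (0.966), and for *Runx2* *Rimklb* (0.975), *Wdr86* (0.968) and *Cbx8* (0.968). *Eif4e3*, a cap-binding factor, was at 34.7 ± 1.56 CPM in chondroblasts, 26.8 ± 0.616 in S9-SCA-1+ cells and 20.4 to 22.3 CPM on average in the others, the same order at much smaller steps. For *Runx3* they were *Ltbp1* (0.965), *1700025G04Rik* (0.960) and *Prnp* (0.955), for *Cbfb* *Fam107b* (0.925), *Fgd1* (0.904) and *Nfya* (0.902), and for *Sp7* *Hpse2* (0.955), *Orai2* (0.939) and *Chst15* (0.924). *Ltbp1*, which binds latent TGFβ, shared with *Runx3* its second place in S9-JAG1+ LMPs, at 108 ± 20.2 CPM against 257 ± 42.1 in chondroblasts. For *Twist1* they were *Eml4* (0.978), *Tmem132c* (0.973) and the mesenchymal homeobox gene *Prrx2* (0.950), and for *Twist2* *Tmem132c* (0.948), *Twist1* (0.944) and *Fam171a1* (0.939). *Twist1* was the only member among the genes named for another member, but *Runx1*, *Runx3* and *Sp7* were too low to be candidates.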

How the data were processed

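Raw counts of reads per gene were used as the authors deposited them, 1 column for each of 14 libraries, with an exon length for each gene. Per the paper's methods and the labels, poly(A)+ RNA was sequenced as single reads, mapped to mm10 with STAR with 1 position kept per read, and counted with QuasR where reads start in RefSeq exons. Of 24454 Entrez identifiers, 24374 were matched to symbols of GRCm38 and the other 80 held 0.358% of counts.

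Genes were filtered with filterByExpr by population, scaled with TMM and fitted with a mean per population (edgeR 4.0.16, R 4.3.3, quasi-likelihood F test, Benjamini-Hochberg adjustment over 15125 genes, 10 pairs and a joint test). The methods name edgeR and both limits, but not the test or an adjustment. The SE is the fold change over the root of F. Log2 CPM used a prior count of 2. Python 3.11.15 drew figures and read sequences.

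The members and lists were chosen with earlier results of these data known. Named are all members, the 3 genes most like each, up to 4 genes per list with the smallest joint p and a mean of at least 1 log2 CPM, the highest marker of each marker list and the sort markers. The 14 ectoderm markers summed to 23.2 to 26.3 CPM in chondroblasts and 14.9 to 17.6 CPM in OCPs. They summed to 8.17 to 11.5 CPM in S9-Pαhi LMPs, 7.29 to 12.8 CPM in S9-JAG1+ LMPs and 7.01 to 8.57 CPM in S9-SCA-1+ cells. Replicate counts differed beyond sampling noise (chi-square per degree of freedom 7.86 to 77.5). Whether replicate numbers pair libraries could not be decided. That libraries came from separate sorts is not stated for each, so p-values measure the spread between these libraries. Alternatives were DESeq2 1.42.0 or its size factors, library totals, other filters, a replicate block, fewer libraries, no fold limit and removal of exon length trends, the last added after seeing the data.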

Additional observations from a re-analysis of the deposited data

How the results depend on the processing

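Of 70 member and pair combinations, no call changed with DESeq2, its size factors, library totals, either filter, the replicate block, only the populations compared in the fit or exon length trends removed (the last chosen after seeing the data). Without a fold limit the members called rose from 2 to 4 (S9-Pαhi over S9-JAG1+ LMPs), 3 to 7 (chondroblasts over S9-JAG1+ LMPs), 0 to 1 (OCPs over S9-Pαhi LMPs), 3 to 6 (chondroblasts over S9-Pαhi LMPs) and 2 to 5 (chondroblasts over OCPs). For S9-SCA-1+ cells they rose from 5 to 7 against S9-JAG1+ LMPs and from 4 to 6 against each other population. For OCPs over S9-JAG1+ LMPs they stayed at 2. With each library left out, the members called were 1 to 2 for S9-Pαhi over S9-JAG1+ LMPs and elsewhere within 1.5 times the count with all libraries. In the joint test all 7 passed except *Cbfb* with library totals (6 passed).

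Directions turned only where no call was made. With each library left out, values ranged from -0.18 to 0.10 for *Sp7* in S9-Pαhi over S9-JAG1+ LMPs, -0.11 to 0.69 for *Runx1* and -0.098 to 0.024 for *Twist2* in OCPs over S9-JAG1+ LMPs, -0.049 to 0.39 for *Runx3* in OCPs over S9-Pαhi LMPs and -0.24 to 0.28 for *Runx2* in chondroblasts over OCPs. Library totals turned *Twist2* in OCPs over S9-JAG1+ LMPs (0.034) and *Cbfb* in S9-SCA-1+ cells over chondroblasts (-0.089), and the replicate block turned *Runx2* in chondroblasts over OCPs (-0.011). Deviations of same-numbered libraries correlated between -0.18 and 0.31, over 0.1 in 4 of 26 pairs. Those of libraries with other numbers lay between -0.31 and 0.41, over 0.1 in 6 of 52 pairs. With 2 or 3 libraries per population, these values cannot decide whether the numbers pair libraries. The genes most like a member were less stable: with Spearman's correlation 1 of 7 members kept all 3, with population means none. Depth limits *Runx3* in S9-SCA-1+ cells (2 and 3 counts), S9-Pαhi LMPs (9 to 15) and OCPs (12 to 17), and *Runx1* in OCPs (11 to 37) and S9-JAG1+ LMPs (13 to 19).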
